A study of Mus musculus with 6 samples.

Results

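Cytochromes P450 are haem enzymes, many of them in the endoplasmic reticulum, that insert 1 oxygen atom into a lipid, steroid or foreign compound. Those of the endoplasmic reticulum use electrons passed on by P450 reductase and cytochrome b5. The Cyp2 family is the broadest P450 family in mice. In kidney several members are found in proximal tubule cells, where some make arachidonic acid epoxides and others oxidise steroids and small foreign molecules. The 8 genes described here are Cyp2j13, Cyp2j5 and Cyp2j11, then Cyp2e1, then Cyp2a4 and Cyp2a5, then Cyp2d9 and Cyp2d26. They were picked by symbol with their values in this comparison known, so their differences are given as measured, with no test. They are 8 of the 47 Cyp2 genes with a value, and each was read by a single transcript cluster (the probes that together report on about 1 gene) of the 22206 tested.

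Every array came from renal tubular epithelial cells, released with collagenase from mouse kidneys that had been ischemic for 30 minutes and then reperfused for 24 hours. The PT2385 group (3 arrays) received 10 mg/kg of compound at 16 hours before surgery and again 1, 8 and 20 hours after it; the vehicle group (3 arrays) had the same injury. PT2385 is a small molecule inhibitor of the oxygen-sensing transcription factor HIF-2α, which it keeps from binding ARNT. The samples are titled IRPT and IR, and reading these as the PT2385 and vehicle groups is an inference from the protocol, which also writes PT2384 for the injections. There was no uninjured group, and the labels used here give no strain, sex, age or vehicle composition, nor whether the 3 samples of a group are separate animals, so the spread between them may be partly technical. Values are log2 signals, and a difference is the PT2385 mean minus the vehicle mean, so that 1 unit is a doubling.

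The labels do not account for a further difference between the groups. Eif2s3y, a Y-linked translation factor gene, had log2 signals of 3.27, 3.04 and 3.34 on the PT2385 arrays, against 9.09, 9.24 and 9.28 on the vehicle arrays. Uty averaged 2.99 ± 0.23 on the PT2385 arrays and 8.66 ± 0.09 on the vehicle arrays (SD, n = 3 each), and Kdm5d 3.32 ± 0.07 and 6.47 ± 0.12. All 3 measured Y-linked genes were thus lower on every PT2385 array than on any vehicle array, and treatment and sex cannot be told apart for any gene below. Several mouse P450 genes are known to differ between the sexes in liver or kidney.

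The labelled cell type was checked against markers. All 17 proximal tubule markers had mean signals above the array's background control rows, the lowest at 9.37, where those rows reached 7.47 at most. Of all 22206 clusters, 7080 had means above that maximum, so a mean below it does not show that a gene is absent. Markers of other cells were present too: 8 of 8 endothelial and 5 of 6 fibroblast markers also had means above those rows, as did 1 of 8 macrophage and neutrophil markers. Of 9 liver markers, 6 had means above those rows, among them Fgg, Fgb, Apob and Alb, and 1, Serpina1a, was higher past an adjusted p of 0.05 in the test across all clusters, at 8.55 ± 0.34 in PT2385 and 7.11 ± 0.28 in vehicle (limma adjusted p = 0.018). Cyp7a1 and Cps1, enzymes of bile acid and urea synthesis in hepatocytes, had means under the median of the negative control rows (4.38). The part of liver markers in the Cyp2 differences was not tested. None of 6 adrenal cortex markers had a mean above the background rows.

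The sharpest difference among the 8 genes was that of Cyp2j13, a Cyp2j gene of chromosome 4 whose substrates are not given here. Its log2 signals were 5.33, 5.83 and 5.37 on the PT2385 arrays, against 10.71, 10.32 and 10.15 on the vehicle arrays. All 3 PT2385 arrays lay far below all 3 vehicle arrays, with means of 5.51 ± 0.28 for PT2385 and 10.39 ± 0.29 for vehicle (SD, n = 3 each). The difference of -4.88 corresponds to 29.5-fold lower signal. The PT2385 mean lay within the span of the background control rows (2.41 to 7.47), though above the negative control median (4.38). Signals in that span can track RNA poorly, so the size of the difference can be understated. In RNA from a mixed isolate, fewer cells of a type and less RNA per cell cannot be told apart, here or for the genes that follow.

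Cyp2j5, the kidney epoxygenase that turns arachidonic acid into epoxyeicosatrienoic acids, showed no separation of the groups. Its log2 signals were 12.44, 12.13 and 11.90 on the PT2385 arrays, against 12.41, 12.11 and 12.45 on the vehicle arrays. The groups overlapped, and the means of 12.16 ± 0.27 for PT2385 and 12.32 ± 0.19 for vehicle differed by -0.16, less than either SD. These signals were near the top of each array's range (maxima of 13.39 to 13.49), where differences can be compressed.

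For Cyp2j11, whose substrates are likewise not given here, the log2 signals were 10.52, 9.44 and 8.75 on the PT2385 arrays, against 8.94, 8.60 and 8.99 on the vehicle arrays. The PT2385 arrays were widely spread, and replicate 3 fell within the vehicle values. Means were 9.57 ± 0.89 for PT2385 and 8.85 ± 0.21 for vehicle, a difference of 0.72 that shrank to 0.25 without PT2385 replicate 1. These 3 genes of one cluster on chromosome 4 therefore gave a large negative, a near-zero and an unstable positive difference.

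The bases just upstream of the starts of Cyp2j13 and Cyp2j11 are shown because these genes lie in the same cluster and gave differences of opposite sign. Both windows hold the 250 bases before the annotated start, on the minus strand of chromosome 4 in GRCm38.p6 (RefSeq): chr4:96077541-96077790 for Cyp2j13, at the first start listed for it, and chr4:96348681-96348930 for Cyp2j11. Capitals mark matches to 6 short motifs searched on both strands.
Cyp2j13: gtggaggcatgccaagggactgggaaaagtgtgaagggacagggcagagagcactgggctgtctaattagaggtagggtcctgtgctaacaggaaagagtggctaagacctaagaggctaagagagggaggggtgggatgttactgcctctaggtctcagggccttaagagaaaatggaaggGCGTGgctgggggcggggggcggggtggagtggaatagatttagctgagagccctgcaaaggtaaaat
Cyp2j11: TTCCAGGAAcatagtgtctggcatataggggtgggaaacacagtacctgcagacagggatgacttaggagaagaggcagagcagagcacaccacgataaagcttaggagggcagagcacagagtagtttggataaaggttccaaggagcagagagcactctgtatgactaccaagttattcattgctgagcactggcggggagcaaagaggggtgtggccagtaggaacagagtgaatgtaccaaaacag
The Cyp2j13 window holds GCGTG, a core to which hypoxia-inducible factors can bind, at bases -68 to -64 from the start. The Cyp2j11 window holds TTCCAGGAA, a match to the STAT pattern TTCNNNGAA, at bases -250 to -242. Such letters are common, with GCGTG in 28.2% and TTCNNNGAA in 7.18% of the 27025 promoter windows of the same length. Neither window holds TATAAA on either strand, which the windows of the other 6 genes hold and which stands in 13.0% of all windows. A match is a description of the letters and says nothing of binding.

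**Figure D1:**
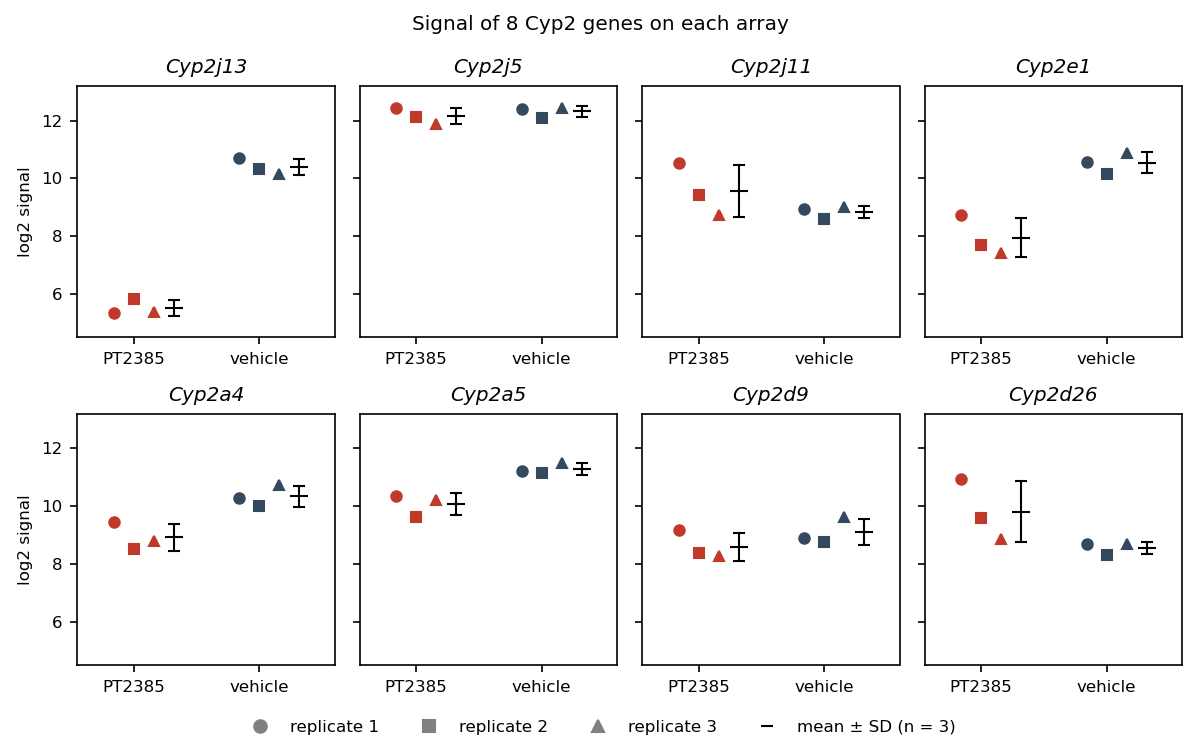
Log2 signal of the 8 Cyp2 genes on each array, with PT2385 left of vehicle in each panel; points are single arrays (n = 3 per group) and bars show mean ± SD. Cyp2j13, Cyp2e1, Cyp2a4 and Cyp2a5 are lower and Cyp2d26 higher on all PT2385 arrays than on any vehicle array, while the groups overlap for Cyp2j5, Cyp2j11 and Cyp2d9.

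Cyp2e1, which oxidises ethanol, acetone and paracetamol, was also lower in the PT2385 group. Log2 signals were 8.71, 7.69 and 7.43 on the PT2385 arrays, against 10.58, 10.16 and 10.88 on the vehicle arrays. No PT2385 array reached the lowest vehicle array. The means of 7.94 ± 0.68 for PT2385 and 10.54 ± 0.37 for vehicle differ by -2.60, a 6.05-fold lower signal. Leaving out any 1 array kept the difference between -2.98 and -2.34. Its upstream window, chr7:140763569-140763818 on the plus strand, is shown because it is the only window of the 8 with the other hypoxia-factor core searched, ACGTG.
Cyp2e1: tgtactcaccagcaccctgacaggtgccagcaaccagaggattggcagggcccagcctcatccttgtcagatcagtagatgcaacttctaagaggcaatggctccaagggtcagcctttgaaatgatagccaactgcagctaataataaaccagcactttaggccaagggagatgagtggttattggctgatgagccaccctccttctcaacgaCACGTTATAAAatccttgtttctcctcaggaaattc
The capitals mark CACGT, the reverse complement of ACGTG, at bases -36 to -32 and the TATAAA at -31 to -26, which adjoin without overlap. ACGTG occurs in 16.6% of all windows.

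Cyp2a4 and Cyp2a5 are near-identical copies on chromosome 7: Cyp2a4 encodes a testosterone hydroxylase and Cyp2a5 the coumarin hydroxylase of mice. Cyp2a4 had log2 signals of 9.44, 8.51 and 8.80 on the PT2385 arrays, against 10.27, 10.01 and 10.74 on the vehicle arrays. Cyp2a5 had 10.34, 9.64 and 10.22 on the PT2385 arrays, against 11.21, 11.14 and 11.51 on the vehicle arrays. Neither gene overlapped between the groups, and PT2385 replicate 2 was the lowest array for both. Cyp2a4 averaged 8.92 ± 0.48 in PT2385 and 10.34 ± 0.37 in vehicle, a difference of -1.43 or 2.69-fold lower signal. The Cyp2a5 means were 10.07 ± 0.38 for PT2385 and 11.29 ± 0.20 for vehicle, a difference of -1.22 or 2.33-fold lower. Because probes for one copy can take up RNA of the other, the pair is best read as a joint measurement and the split between them is uncertain.

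The likeness of the pair extends upstream of the genes, so both windows are shown (plus strand, chr7:26306942-26307191 for Cyp2a4 and chr7:26835089-26835338 for Cyp2a5), with the differing bases in capitals.
Cyp2a4: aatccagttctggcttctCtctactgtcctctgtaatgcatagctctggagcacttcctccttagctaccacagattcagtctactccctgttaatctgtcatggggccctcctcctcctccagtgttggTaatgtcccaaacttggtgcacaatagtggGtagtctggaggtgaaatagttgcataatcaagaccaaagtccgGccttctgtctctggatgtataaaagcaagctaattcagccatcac
Cyp2a5: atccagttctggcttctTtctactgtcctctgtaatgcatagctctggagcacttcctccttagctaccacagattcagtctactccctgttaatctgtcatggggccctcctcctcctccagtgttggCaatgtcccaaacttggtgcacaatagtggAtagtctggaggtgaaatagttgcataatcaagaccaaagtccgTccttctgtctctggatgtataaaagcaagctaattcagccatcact
Aligned with a shift of 1 base, they agree at 245 of 249 positions (98.4%). The 4 substitutions are C19T, T131C, G161A and G205T, counted from 1 at the 5′ end of the Cyp2a4 window with the Cyp2a4 base first. Both windows hold GTTAAT, an arm of the HNF1 site, which stands in 6.52% of all windows and, reversed, in that of Cyp2d26. The nearest other relative upstream, Cyp2a12, was 61.5% identical to Cyp2a4 and 62.9% to Cyp2a5. That gene could show no difference here, since its mean signal of 4.38 was at the negative control median.

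Cyp2d9, a testosterone hydroxylase typical of male mouse liver, showed log2 signals of 9.16, 8.37 and 8.26 on the PT2385 arrays, against 8.91, 8.77 and 9.64 on the vehicle arrays. The groups overlapped, since PT2385 replicate 1 exceeded vehicle replicates 1 and 2. Means were 8.60 ± 0.49 for PT2385 and 9.11 ± 0.46 for vehicle, a difference of -0.51. It grew to -0.79 without PT2385 replicate 1 and shrank to -0.25 without vehicle replicate 3, so single arrays set its size.

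Cyp2d26, at the far end of the same cluster on chromosome 15, ran the other way, and its substrates are not given here. Its log2 signals were 10.94, 9.60 and 8.87 on the PT2385 arrays, against 8.69, 8.31 and 8.67 on the vehicle arrays. Every PT2385 array lay above every vehicle array, though replicate 3 cleared the highest of them narrowly. Means were 9.80 ± 1.05 for PT2385 and 8.56 ± 0.21 for vehicle, a difference of 1.25 or 2.37-fold higher signal, which was 0.68 without PT2385 replicate 1. The upstream window of Cyp2d9 is 85.0% identical to that of Cyp2d10, whose difference was 0.10 at a mean signal of 6.01, among the background rows. Close relatives in the Cyp2d cluster can also share probe signal.

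The 8 genes together had a median difference of -0.86, with 6 negative and 2 positive, where the median over all 22206 clusters was 0.02. The groups did not overlap for 5 of them, 4 lower and 1 higher in PT2385. Over all clusters, the groups did not overlap for 20.7%, made up of 9.13% lower and 11.6% higher in PT2385. These shares are printed for scale only, since the genes were picked on this comparison.

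Among the PT2385 arrays, replicate 1 gave the highest signal for 7 of the 8 genes, all but Cyp2j13. Replicate 3 gave the lowest signal for 5 of them, and the SD was larger in the PT2385 group than in the vehicle group for 7. Over all clusters, replicate 1 was the highest PT2385 array for 36.8%. The proximal tubule markers shared this order, being highest on PT2385 replicate 1 for 15 of 17 genes. Their mean log2 signal was 11.34, 10.86 and 10.46 on the PT2385 arrays, against 10.96, 10.72 and 11.04 on the vehicle arrays, so the groups overlapped and their means differed by -0.02. Of these 17 markers, 7 had positive and 10 negative differences, and 1, the organic anion transporter gene Slc22a6, fell past the threshold of the test across all clusters.

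Each array was also centred on its proximal tubule marker mean, a step added after seeing the data. This shifts every difference by the same 0.02, the marker difference above, and so bears only on the spread. The spread within a group narrowed for most: the PT2385 SD was smaller for 6 of 8 genes and the vehicle SD for 7 of 8. For Cyp2j11 the PT2385 SD was 0.452 after centring and 0.894 before, and for Cyp2d26 0.611 and 1.05. Cyp2j13 and Cyp2a5 were the exceptions in the PT2385 group, with SDs of 0.555 and 0.516 after centring, against 0.280 and 0.376 before.

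All 10 markers of Henle's loop and the distal tubule had positive differences, with a median of 0.96, and 1 of them, the tight junction gene Cldn19, passed the threshold. Their mean log2 signal was 10.21, 9.73 and 9.41 on the PT2385 arrays, against 8.79, 8.78 and 8.86 on the vehicle arrays. The 10 collecting duct markers were also all positive, with a median of 0.46. Cyp2d26 and Cyp2j11, the 2 genes with positive differences, had the same order of PT2385 arrays as the loop markers, and so had Cyp2j5, Cyp2e1 and Cyp2d9. Cyp2j13, Cyp2a4 and Cyp2a5 did not. This order is not particular to the loop markers, since the proximal tubule and collecting duct marker means had it too. The part of these markers in the Cyp2 differences was not tested.

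**Figure D2:**
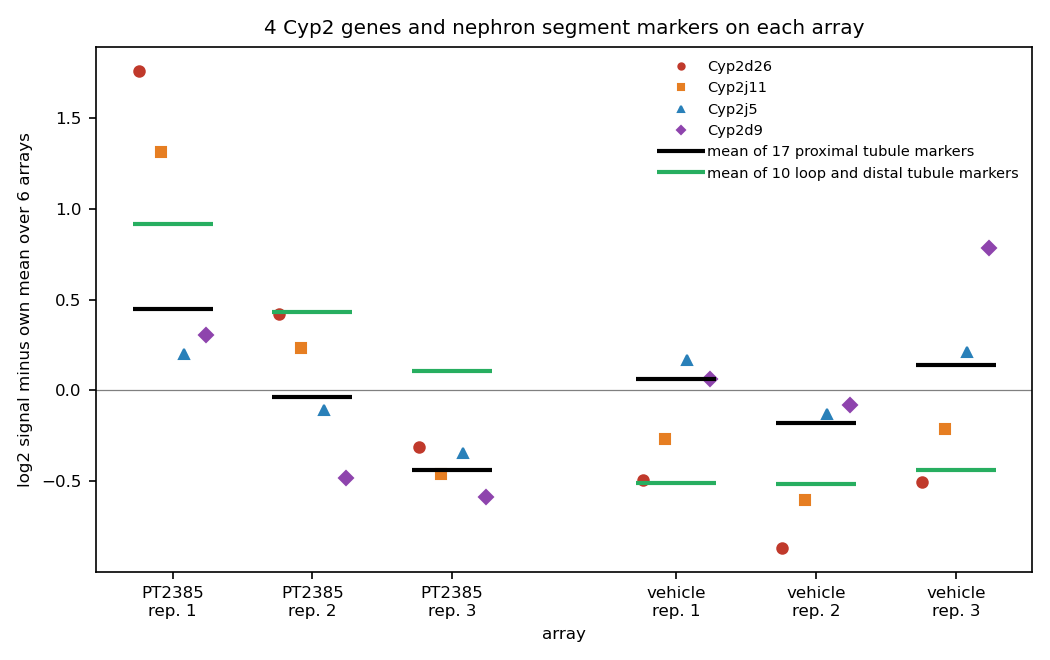
Log2 signal minus each item's own mean over the 6 arrays, for 4 Cyp2 genes (points) and for the means of the proximal tubule and of the loop and distal tubule markers (horizontal bars), with the PT2385 arrays left of the vehicle arrays. Cyp2d26, Cyp2j11 and both marker means are highest on PT2385 replicate 1, and the loop and distal mean is above 0 on every PT2385 array and below 0 on every vehicle array.

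The other 39 measured Cyp2 genes served as the setting for these differences. None passed the adjusted p threshold of 0.05 in limma, where 184 of all clusters, 0.829%, did, 0.333% higher and 0.495% lower in PT2385. An unadjusted p under 0.05 in limma was found for 6 of the 39, and for 14.5% of all clusters. The median difference of the 39 was 0.05, with 25 positive and 14 negative. The groups did not overlap for 8, all higher in PT2385, where 11.6% of all clusters were higher without overlap. Most of these 8 were dim: Cyp2c37, Cyp2c50, Cyp2c54 and Cyp2c66 had means under the negative control median. Cyp2ab1 and Cyp2d40 lay among the background rows, and only Cyp2d22 and Cyp2u1 had means above them. For only 7 of the 39 was the mean signal above the background rows, and 21 had means under the negative control median, so most carried little signal in these cells.

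The relatives named here did not pass the threshold. Cyp2j9, between Cyp2j6 and Cyp2j5, averaged 6.31 ± 0.15 in PT2385 and 6.81 ± 0.31 in vehicle, a difference of -0.51 (SE 0.16, limma adjusted p = 0.219). Cyp2j12, next to Cyp2j13, differed by -0.11, and in the Cyp2a subfamily Cyp2a22 differed by -0.09, but their mean signals of 3.58 and 4.15 lay under the negative control median, so no difference could be seen there. Cyp2d40, next to Cyp2d26, differed by 0.49 (SE 0.15, limma adjusted p = 0.196) and Cyp2d22 by 0.40 (adjusted p = 0.260). The mean signals of Cyp2j9 (6.56) and Cyp2d40 (7.16) lay within the span of the background control rows. Cyp2c23, another arachidonic acid epoxygenase of the kidney, had log2 signals of 10.24, 9.36 and 9.03 on the PT2385 arrays, against 9.15, 8.45 and 9.13 on the vehicle arrays. Its groups overlapped and its difference was 0.63 (SE 0.31, limma adjusted p = 0.391). The second of its subfamily by size, Cyp2c37, differed by 0.31 (adjusted p = 0.242) at a mean signal of 3.81, under the negative control median. Cyp2u1, a fatty acid hydroxylase gene named after its values were seen, had the smallest p of the 39, with 7.93 ± 0.17 in PT2385 and 7.38 ± 0.15 in vehicle, no overlap and a difference of 0.55 (SE 0.12, limma adjusted p = 0.106).

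**Figure D3:**
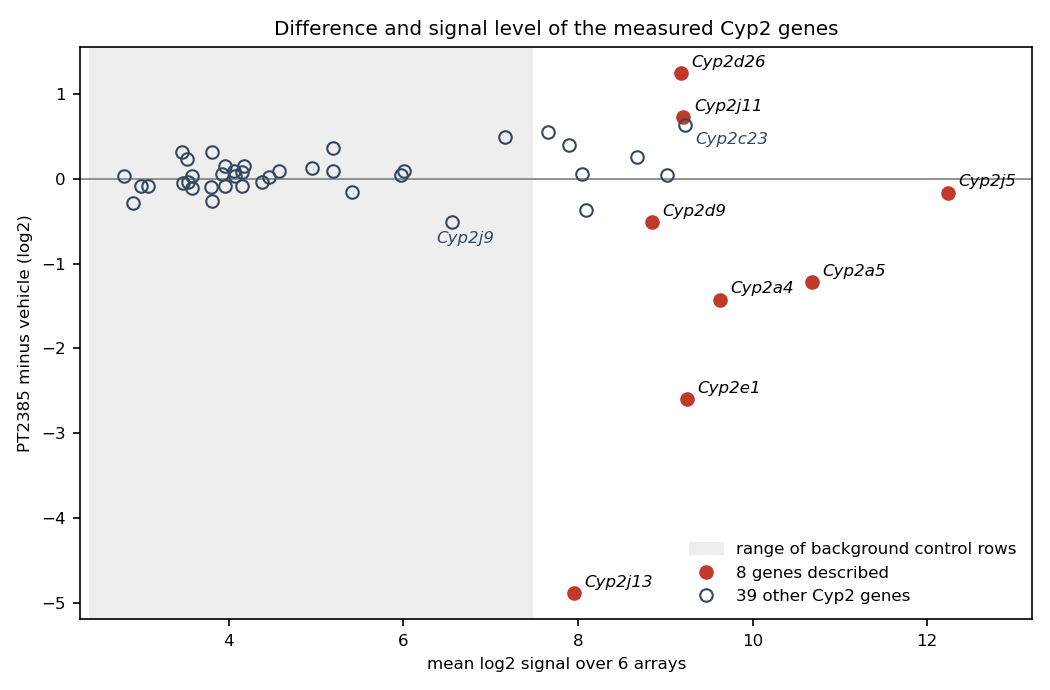
PT2385 minus vehicle difference (log2, vertical axis) against mean log2 signal over the 6 arrays (horizontal axis) for the 8 genes described (filled) and the 39 other Cyp2 genes (open), with the span of background control rows (2.41 to 7.47) shaded. The other Cyp2 genes lie between -0.51 and 0.63, and most are inside the shaded range. Signals of different genes come from different probes and are not compared with each other.

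**Figure D4:**
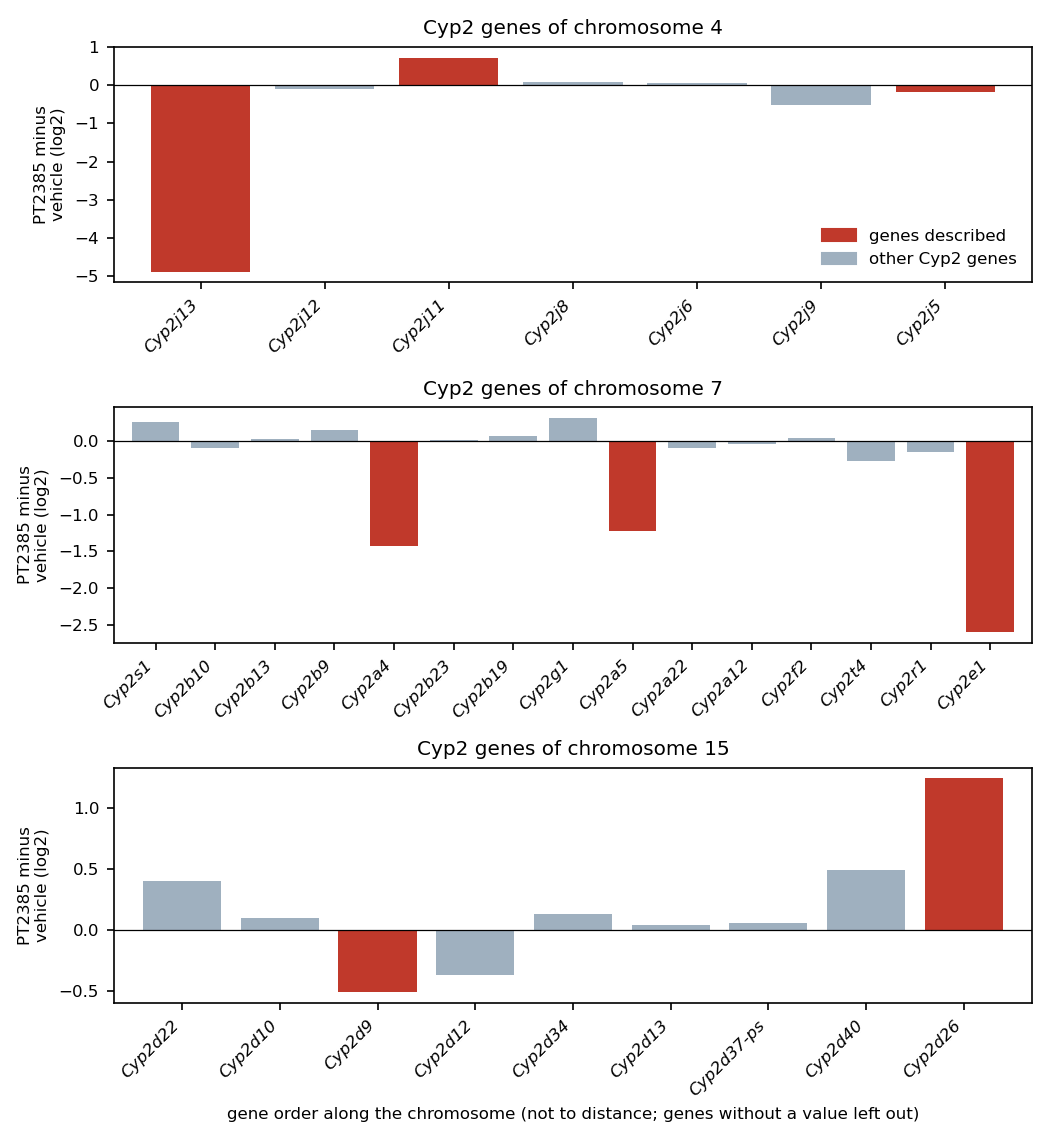
PT2385 minus vehicle difference (log2) of the measured Cyp2 genes of chromosomes 4, 7 and 15, in RefSeq gene order and not to distance; bars start at 0, and filled red bars are the genes described. The longest bars are those of Cyp2j13 at -4.88, Cyp2e1 at -2.60 and Cyp2a4 at -1.43. Many of the short bars belong to genes with signals among the background control rows, where a difference can be understated.

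Among the 51 genes of the other P450 families, 4 fell and 1 rose past the threshold, where 0.495% of all clusters fell and 0.333% rose. All 5 belong to the Cyp4 family, whose enzymes hydroxylate fatty acids at or near the chain end. Cyp4a12a, the arachidonic acid hydroxylase that is typical of male mouse kidney, averaged 6.54 ± 0.07 in PT2385 and 9.84 ± 0.15 in vehicle, a difference of -3.30 (SE 0.11, limma adjusted p = 2.14e-06, n = 3 each). The PT2385 means of Cyp4a12a and of Cyp4b1-ps2 (6.01) lay among the background control rows, so the size of both differences can be understated. Cyp4a12b, a close copy of Cyp4a12a, fell by 2.50 (adjusted p = 0.000783), and the pair can share probe signal. Cyp4b1 averaged 10.28 ± 0.16 in PT2385 and 11.90 ± 0.10 in vehicle and fell by 1.62 (limma adjusted p = 0.000414), while its pseudogene Cyp4b1-ps2 fell by 2.01 (adjusted p = 0.000131). Cyp4a14, the gene that rose, was named after its values were seen; it rose by 1.42 (limma adjusted p = 0.0431), a call lost in 5 of 13 alternative settings, among them those without vehicle replicate 2 or any 1 PT2385 array, with an adjusted p of up to 0.199.

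Genes that serve or steer P450 enzymes were taken from 5 lists, of whose 66 genes 60 had a value and 6 were not analysed here. None rose and 3 fell past the threshold, where 0.333% of all clusters rose and 0.495% fell. The median difference of the 60 was -0.01 (28 positive, 32 negative). Without overlap, 12 were lower and 7 higher in PT2385, against 9.13% and 11.6% of all clusters. An unadjusted p under 0.05 in limma was found for 19, against 14.5% of all clusters. These shares are for scale only, since the lists were chosen with earlier results known. The number of calls moved with single arrays: it was 0 without PT2385 replicate 2 or without any 1 vehicle array. It was 2 without PT2385 replicate 1, Cpox and Hnf4g, which are described below. Without PT2385 replicate 3 it was 1, and that call was Hmox1, which is not among the 3. None of the 6 electron donor genes passed. Cyb5a, the cytochrome b5 that passes electrons to many P450s, averaged 11.16 ± 0.11 in PT2385 and 11.63 ± 0.17 in vehicle, a difference of -0.47 (SE 0.12, limma adjusted p = 0.137). Cyb5r3, its reductase, differed by -0.43 (adjusted p = 0.130).

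Of 11 genes of haem synthesis and breakdown, 1 fell: Cpox, which encodes coproporphyrinogen oxidase of haem synthesis, averaged 9.57 ± 0.11 in PT2385 and 10.30 ± 0.17 in vehicle, a difference of -0.73 (SE 0.12, limma adjusted p = 0.0349). That call was lost in 6 of 13 alternative settings. Alas1, the first enzyme of the pathway, differed by -0.36 (adjusted p = 0.249). Hmox1, the haem oxygenase that breaks haem down, named after its values were seen, differed by -1.06 (SE 0.20, limma adjusted p = 0.0566).

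Of the 9 genes of epoxide hydrolysis and arachidonate release, 1 fell. Ephx2, the soluble epoxide hydrolase that turns the epoxides made by Cyp2j5 into diols, averaged 10.12 ± 0.06 in PT2385 and 10.69 ± 0.12 in vehicle, a difference of -0.57 (SE 0.10, limma adjusted p = 0.0497). This call was lost in 9 of 13 alternative settings. Ephx1, the microsomal hydrolase, named after its values were seen, differed by 0.68 (adjusted p = 0.114).

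Among 20 xenobiotic sensors and liver-enriched transcription factors, 1 fell. Hnf4g, a nuclear receptor related to Hnf4a, averaged 7.06 ± 0.19 in PT2385 and 7.92 ± 0.26 in vehicle, a difference of -0.86 (SE 0.15, limma adjusted p = 0.0497). The call was lost in 8 of 13 alternative settings. Hnf4a, a main activator of P450 genes in liver, differed by -0.25 (adjusted p = 0.339), the xenobiotic sensor Nr1i3 by 0.22 (adjusted p = 0.454) and the aryl hydrocarbon receptor gene Ahr by -0.02 (adjusted p = 0.935). None of 14 hormone receptor and signalling genes passed: the mineralocorticoid receptor gene Nr3c2 differed by 0.47 (adjusted p = 0.283), the growth factor gene Igf1 by 0.61 (adjusted p = 0.299) and the growth hormone receptor gene Ghr by -0.07 (adjusted p = 0.867).

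**Figure D5:**
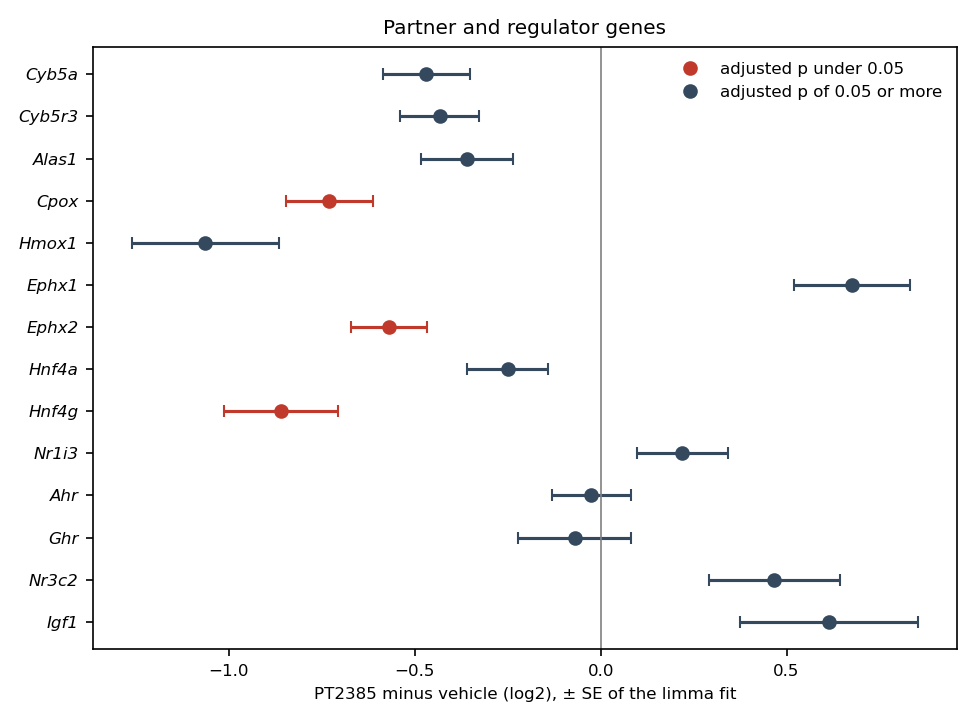
PT2385 minus vehicle difference (log2, horizontal axis) with the SE of the limma fit for 14 partner and regulator genes (vertical axis); red points have an adjusted p under 0.05 and dark points do not. Cpox, Ephx2 and Hnf4g are the red points, at -0.73, -0.57 and -0.86.

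Likeness between genes was measured as the root mean square distance of their 6-array profiles, each with its own mean taken off, in log2 units. Profiles were not scaled, so a distance reflects the size of a difference as well as its shape. All values share the 6 arrays and the same contrast, so they carry no test. Within the set, Cyp2a4 and Cyp2a5 were closest (0.210), then Cyp2j11 and Cyp2d26 (0.278), and Cyp2j13 and Cyp2d26 were farthest apart (3.14). Among all other genes, the nearest to Cyp2j13 were the organic anion transporter gene Slco1a1 (0.478) and the Y-linked Uty (0.484). Slco1a1 had log2 signals of 4.21, 4.27 and 4.67 on the PT2385 arrays, against 8.79, 8.76 and 9.54 on the vehicle arrays. The PT2385 signals of Cyp2j13, Slco1a1 and Uty all lay among the background control rows, so these distances rest in part on signals that can track RNA poorly.

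Cyp2e1 was nearest to the carboxylesterase gene Ces1f (0.279) and the fatty acid transporter gene Cd36 (0.294). Cyp2a4 was nearest to Cyp4b1 (0.282) and Tc2n (0.293), and Cyp2a5 to Tc2n (0.216) and the flavin monooxygenase gene Fmo5 (0.231), apart from each other. Cyp2j5 was nearest to Pipox (0.0383) and Rgs12 (0.0393), and Cyp2d9 to Csad (0.0865) and Pyroxd2 (0.110). For Cyp2j11 the nearest were Slc22a29 (0.0869) and Flvcr2 (0.0912), and for Cyp2d26 Aadat (0.128) and the sodium-calcium exchanger gene Slc8a1 (0.169). All signals of Rgs12, Tc2n, Slc22a29 and Flvcr2 lay among the background control rows, as did some of Ces1f, Fmo5, Csad and Slc8a1. Their distances carry the same limit as those of Cyp2j13.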

How the data were processed

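RNA from 6 samples of mouse renal tubular epithelial cells was hybridised to Affymetrix whole-transcript arrays, 3 per group. The deposited values are log2 signals, 1 per transcript cluster and array. Transcriptome Analysis Console is named without a version, per the submitters' processing notes; the sources used here give no background correction, normalization or summarisation. No value was renormalised. Of 28846 rows, 6640 control rows were left out and 22206 clusters were tested, dim ones included; the annotation gave 19572 of them 1 symbol, 0 several and 2634 none.

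Groups were compared over all clusters with limma 3.58.1 in R 4.3.3 (lmFit, eBayes, treatment as the only term, 2-sided) and Benjamini-Hochberg adjustment at 0.05. The members and lists were chosen with earlier results of these data known, so the 8 genes carry no test. A gene with several clusters was read from its brightest. Other genes were named by rule: in other P450 families and each list up to 4 past the threshold, or else the 2 with the smallest p; in the Cyp2 subfamilies the 2 with the largest difference; a few regulators and Y-linked genes; and the 2 genes most like each member. Samples were treated as unpaired. Deviations of same-numbered arrays correlated at 0.138, 0.0252 and -0.0587, and so few arrays cannot settle whether replicate numbers pair the samples. The number of arrays limits the precision. Promoter windows are RefSeq sequences (GRCm38.p6), for all 8 genes; identities came from pairwise alignment (Biopython 1.88). Alternatives covered normalization, dim clusters, variance settings, array weights, sex chromosomes, a replicate block and each array left out.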

Additional observations from a re-analysis of the deposited data

How the results depend on the processing

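The directions of all 8 differences held after quantile normalization and with each array left out. Centring on the array medians or on the proximal tubule markers shifts every difference by the same amount. Both shifts were smaller than the smallest of the 8 differences (-0.16, Cyp2j5), so neither could change a direction. The other alternatives were not examined for the 8 genes. Leaving out each array in turn gave -5.04 to -4.72 for Cyp2j13, -0.31 to -0.03 for Cyp2j5, 0.25 to 1.14 for Cyp2j11, -2.98 to -2.34 for Cyp2e1, -1.69 to -1.22 for Cyp2a4, -1.36 to -1.005 for Cyp2a5, -0.79 to -0.25 for Cyp2d9 and 0.68 to 1.71 for Cyp2d26. The count of other Cyp2 genes past the threshold stayed at 0 in limma under all 13 alternatives. In the primary limma fit 6 of these genes had an unadjusted p under 0.05, where 14.5% of all clusters did. The count for other P450 families was 5, between 4 and 5 with an array left out and 7 with array weights. The count of 3 partner and regulator genes depended on the settings. It was 1 after quantile normalization, 6 with array weights, 1 with X and Y genes left out, and 0 to 2 with an array left out. Without PT2385 replicate 3 the 1 call was Hmox1, which is not among the 3. Samples were treated as unpaired. PT2385 replicates 2 and 3 did not correlate best with their own number, replicate 1 did, and so few arrays cannot exclude pairing. With a replicate block, the count of partner and regulator genes was 0. Another cluster of the same symbol could not be tried, because each of the 8 genes has 1. Dim signals limit Cyp2j13, Cyp4a12a and Cyp4b1-ps2 in the PT2385 group and most of the other Cyp2 genes.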
